A study of Mus musculus with 6 samples.

Results

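Protein kinase A, the kinase that cAMP switches on, was followed through 8 mouse genes: the catalytic subunits Prkaca and Prkacb, the regulatory subunits Prkar1a, Prkar1b, Prkar2a and Prkar2b, the inhibitor Pkia and the anchor protein Akap1. They were chosen by name, with earlier results of these data known. All transcripts that the GENCODE M21 annotation assigns to them were taken, which gave 26 transcripts with a read among the 59371 of 21730 genes that had one. The tissue was interscapular brown adipose tissue, the fat depot between the shoulder blades that burns fuel to make heat, from male C57BL/6N mice aged 20 weeks. The 3 cold mice (numbers 4, 11 and 15) spent 24 h at 4 °C, each housed alone, and the 3 ctrl mice (numbers 2, 9 and 14) stayed at 22 to 24 °C. The labels do not say whether the ctrl mice were housed alone, so single housing and cold cannot be told apart. Poly(A) RNA was read as long cDNA molecules on Oxford Nanopore flow cells without PCR, and each value is from 1 mouse, with the reads of its 2 flow cells added.

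As background, protein kinase A rests as a complex in which regulatory subunits hold catalytic subunits inactive, and cAMP that binds the regulatory subunits frees the catalytic ones. Anchor proteins hold the regulatory subunits at chosen places in the cell, and the small PKI proteins block free catalytic subunits. In brown fat noradrenaline raises cAMP through beta-adrenergic receptors, and the kinase then phosphorylates lipases, lipid droplet proteins and the transcription factor CREB. Mouse fat tissue is known for its abundance of the type II beta subunit, encoded by Prkar2b. CREB binds the cAMP response element, an 8-letter palindrome.

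The promoters of the 2 genes that rose in the cold, and of the regulatory subunit gene with the most reads, are given first, because cAMP response elements are the sites through which CREB acts. RefSeq promoter windows on GRCm38.p6, from 250 bases before a gene's start to 50 bases after it, were found for 7 of the 8 genes, all but Pkia. The windows were searched on both strands for the whole element TGACGTCA and for the 5-letter core TGACG, which reads CGTCA on the other strand. Each match of the core is in capitals below, and a whole element holds 2 overlapping matches of the core. Prkar1a is shown with both of its well-read start sites, named after the transcripts nearest to them.
Prkar1a-201, chr11:109650699-109650998, plus strand: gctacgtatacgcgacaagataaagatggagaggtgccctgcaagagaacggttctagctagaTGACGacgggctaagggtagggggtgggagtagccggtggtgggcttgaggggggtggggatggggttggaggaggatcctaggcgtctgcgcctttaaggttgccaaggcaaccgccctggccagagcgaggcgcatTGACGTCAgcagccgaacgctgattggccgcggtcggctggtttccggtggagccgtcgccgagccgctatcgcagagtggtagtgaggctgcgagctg
Prkar1a-203, chr11:109649113-109649412, plus strand: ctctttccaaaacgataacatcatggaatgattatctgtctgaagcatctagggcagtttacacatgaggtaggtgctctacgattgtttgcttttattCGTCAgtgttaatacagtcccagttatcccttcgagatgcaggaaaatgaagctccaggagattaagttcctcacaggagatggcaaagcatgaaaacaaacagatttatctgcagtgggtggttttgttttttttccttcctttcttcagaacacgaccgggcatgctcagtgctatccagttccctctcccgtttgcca
Prkar2a-201, chr9:108691893-108692192, plus strand: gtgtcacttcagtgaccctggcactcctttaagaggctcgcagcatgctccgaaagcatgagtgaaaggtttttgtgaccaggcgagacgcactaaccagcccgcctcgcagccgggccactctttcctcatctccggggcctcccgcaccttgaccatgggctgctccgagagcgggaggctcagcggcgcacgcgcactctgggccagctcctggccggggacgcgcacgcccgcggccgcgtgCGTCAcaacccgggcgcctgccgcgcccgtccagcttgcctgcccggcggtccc
Prkar2b-202, chr12:32061228-32061527, minus strand: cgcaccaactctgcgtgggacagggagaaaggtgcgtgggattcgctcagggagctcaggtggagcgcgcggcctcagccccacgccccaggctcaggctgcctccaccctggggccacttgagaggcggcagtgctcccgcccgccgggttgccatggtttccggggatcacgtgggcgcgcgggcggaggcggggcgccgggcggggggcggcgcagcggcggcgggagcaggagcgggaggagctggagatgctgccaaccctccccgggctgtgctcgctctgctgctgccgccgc
The Prkar1a-201 window held 1 whole element, which began 49 bases before the RefSeq start, and 3 matches of the core, 2 of them inside the element. The Prkar1a-203 and Prkar2a-201 windows each held 1 match of the core and no whole element. Neither was found in the Prkar2b-202 window or in those of Akap1, while the Prkaca and Prkacb windows held 2 and 1 matches of the core. Of 32851 promoter windows of the same length, 588 (1.79%) held the whole element and 6837 (20.8%) held the core. Windows of 1 chromosome, which holds none of the 8 genes, were left out of this count. The 7 genes had 22 windows in all, and only those nearest to transcripts of at least 20 reads are described here. The RefSeq starts lay 28, 42, 0 and 19 bases from the annotated starts of Prkar1a-201, Prkar1a-203, Prkar2a-201 and Prkar2b-202. These are descriptions of letters in a window, and no binding was measured.

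The 6 libraries held between 1657985 and 2238056 reads each, and levels are in CPM, reads scaled for library size, in which 3 reads were worth 1.396 to 1.75. Brown adipocyte markers were present throughout, with reads for 10 of 10 and summed levels of 21110 to 21893 CPM in cold and 17115 to 19036 CPM in ctrl mice. Among them 4 were called higher and 2 lower. Ucp1 weighed most, at 13665 to 13889 CPM in cold and 9700 to 11228 CPM in ctrl mice. Cox8b went the other way, at 2420 to 2738 CPM in cold and 3379 to 3667 CPM in ctrl mice. So did Adipoq, at 376 to 432 CPM in cold and 546 to 636 CPM in ctrl mice. Cold mouse 15 stood apart in skeletal muscle markers, which had reads for 10 of 10 and summed to 238, 1211 and 3008 CPM in cold mice 4, 11 and 15, against 83.3, 355 and 572 CPM in ctrl mice 2, 9 and 14. White adipocyte markers (5 of 5 with reads) summed to 296 to 329 CPM in cold and 102 to 163 CPM in ctrl mice. Among the 4 tested, 3 were called higher and 0 lower. Npr3 weighed most, at 184 to 190 CPM in cold and 44.0 to 68.4 CPM in ctrl mice. Retn had 91.7 to 127 CPM in cold and 49.8 to 64.8 CPM in ctrl mice. Lep overlapped between the groups, at 2.33 to 7.51 CPM in cold and 2.33 to 24.5 CPM in ctrl mice. Agt had at most 0.582 CPM in any mouse. Endothelial markers (6 of 6) summed to 314 to 316 CPM in cold and 264 to 267 CPM in ctrl mice. Of these, 1 was called higher and 0 lower. Kdr weighed most, at 82.7 to 89.7 CPM in cold and 52.7 to 61.4 CPM in ctrl mice, while Tie1 averaged lower in cold mice. Smooth muscle and pericyte markers (5 of 5) summed to 157 to 169 CPM in cold and 192 to 220 CPM in ctrl mice. Of these, 1 was called lower and 0 higher. Rgs5 weighed most, at 71.6 to 82.2 CPM in cold and 115 to 142 CPM in ctrl mice. Acta2 went the other way, at 30.1 to 35.3 CPM in cold and 20.9 to 27.0 CPM in ctrl mice. Neuronal markers summed to 5.80 to 9.90 CPM in cold and 2.55 to 4.05 CPM in ctrl mice, with Elavl4 and Th at 0. Nearly all of this was Stmn2, at 5.31, 6.01 and 9.90 CPM in cold mice 4, 11 and 15. It had 3.47, 1.53 and 3.72 CPM in ctrl mice 2, 9 and 14. Tubb3 and Syt1 had reads in ctrl mice only, so the sum does not speak for neuronal markers as a group. The part of these differences in the results below was not tested, except for the muscle markers. These were used as a covariate for genes, not for transcripts, and where that ended a call, its adjusted p stands beside the gene. In bulk tissue, fewer cells of a type and less RNA per cell cannot be told apart.

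Of the 8 genes, 6 had enough reads for edgeR's quasi-likelihood test. The regulatory subunit genes Prkar1a and Prkar2a were higher in the cold at a Benjamini-Hochberg adjusted p under 0.05, and none was lower. Without cold mouse 15, 1 of the 6, Prkar1a, was higher and 0 were lower. Among all 8684 tested genes 847 (9.75%) were higher and 848 (9.77%) lower, or 19.5% in either direction. The groups did not overlap in the same 2 of the 6 genes, against 35.1% of all tested genes. The median log2 fold change of all tested genes was 0.0009.

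**Figure D1:**
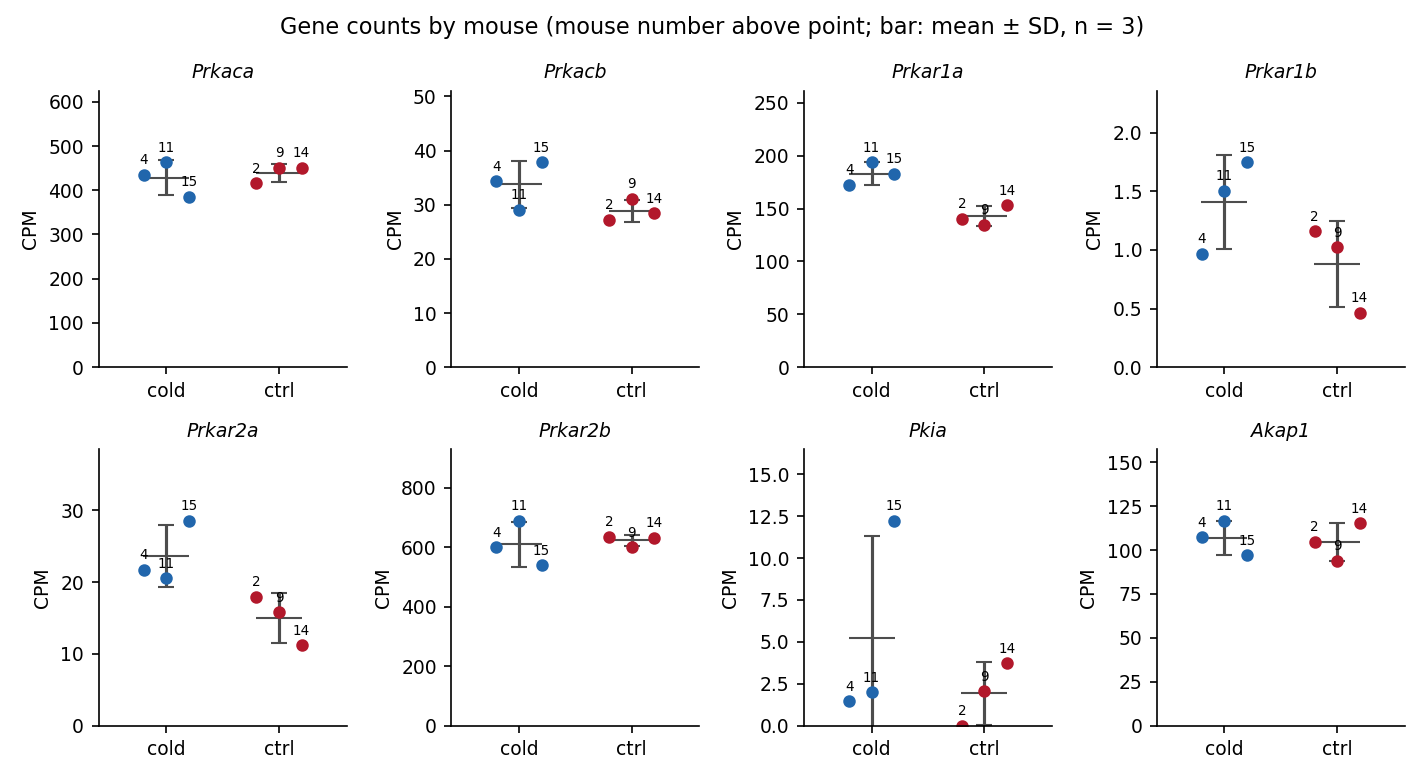
Level of each of the 8 genes in every mouse, in CPM on a linear axis from 0, with cold mice left of ctrl mice, the mouse number above each point and bars for mean ± SD (n = 3), cut off at 0. For Prkar1a and Prkar2a all cold mice lie above all ctrl mice; for Pkia 1 cold mouse, number 15, lies at 12.2 CPM and the other 5 mice between 0 and 3.72 CPM.

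The genes differed widely in abundance. Per kilobase of transcript, Prkar2b averaged 192 ± 23.8 CPM per kb in cold and 196 ± 6.14 CPM per kb in ctrl mice (SD, n = 3), and Prkaca 188 ± 17.4 in cold and 193 ± 9.03 in ctrl mice. On this scale these 2 genes did not differ by more than their spread, but that depends on the division by length. In plain CPM Prkar2b lay above Prkaca, at 539 to 690 against 385 to 463 CPM in cold mice. In ctrl mice the values were 601 to 636 against 415 to 451 CPM. Whether these long reads call for scaling by length was not tested. Prkar1a came next at 53.9 ± 3.15 CPM per kb in cold and 42.0 ± 2.76 in ctrl mice, followed by Akap1 at 28.7 ± 2.61 and 28.1 ± 2.88. Prkacb had 7.82 ± 1.03 CPM per kb in cold and 6.70 ± 0.468 in ctrl mice, and Prkar2a had 4.81 ± 0.879 in cold and 3.05 ± 0.706 in ctrl mice. At the low end Pkia (1.45 ± 1.68 in cold, 0.531 ± 0.515 in ctrl mice) and Prkar1b (0.542 ± 0.154 in cold, 0.340 ± 0.141 in ctrl mice) overlapped.

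The catalytic subunits showed no change that passed the test. Prkaca, the main catalytic subunit gene (chromosome 8, 83972993 to 83996443), had 435, 463 and 385 CPM in cold mice 4, 11 and 15, against 415, 451 and 451 CPM in ctrl mice 2, 9 and 14. The groups overlapped, with the lowest value in cold mouse 15. Its fold change was 0.975, with a 95% interval of 0.868 to 1.10 (log2 fold change -0.036 ± 0.081 SE, edgeR adjusted p = 0.812). Prkacb, the beta form (chromosome 3, 146729574 to 146812990), had 34.3, 29.1 and 37.8 CPM in cold mice and 27.2, 31.1 and 28.4 CPM in ctrl mice. These values overlapped too, and the fold of 1.16 had an interval of 0.925 to 1.46 (edgeR adjusted p = 0.386). Prkacb made up 4.03 ± 0.861% of catalytic reads per kb in cold and 3.35 ± 0.153% in ctrl mice (exact two-sided permutation p = 0.4).

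Among the regulatory subunits, Prkar1a, which encodes the type I alpha form (chromosome 11, 109649405 to 109669656), rose in the cold. It had 172, 194 and 183 CPM in cold mice 4, 11 and 15, against 141, 135 and 153 CPM in ctrl mice 2, 9 and 14, from 243 to 387 reads a mouse. Every cold mouse lay above every ctrl mouse. The means were 183 ± 10.7 CPM in cold and 143 ± 9.37 CPM in ctrl mice (SD, n = 3), a 1.28-fold rise with a 95% interval of 1.12 to 1.46 (log2 fold change 0.36 ± 0.092 SE, edgeR adjusted p = 0.00765). The call held without each mouse in turn, with adjusted p from 0.0126 to 0.0416, and was 0.0156 without cold mouse 15. It did not hold with DESeq2 (adjusted p = 0.053), with the muscle markers as a covariate (log2 fold change 0.30, adjusted p = 0.0833) or on flow cell 2 alone (0.23, adjusted p = 0.262).

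Prkar2a, the type II alpha form (chromosome 9, 108689314 to 108750436), also rose, at a low level. It had 21.7, 20.5 and 28.5 CPM in cold mice 4, 11 and 15, against 17.9, 15.8 and 11.2 CPM in ctrl mice 2, 9 and 14. The groups did not overlap, but the reads were few, 45, 41 and 49 in cold and 31, 31 and 24 in ctrl mice. The fold of 1.58 had a 95% interval of 1.16 to 2.16 (log2 fold change 0.66 ± 0.22 SE, edgeR adjusted p = 0.0342). Cold mouse 15, the library with the most muscle markers (3008 CPM), had the highest value. Ctrl mouse 14, with the most muscle markers of the ctrl mice (572 CPM), had the lowest. Without cold mouse 15 the log2 fold change was 0.52 (adjusted p = 0.145), and without ctrl mouse 14 it was 0.47 (adjusted p = 0.195). Nor did the call hold without cold mouse 4 or ctrl mouse 9 (adjusted p = 0.0569 and 0.0577) or with DESeq2 (0.175). With the muscle markers as a covariate the log2 fold change was 0.65, and the call was lost (adjusted p = 0.111). The call was also lost on flow cell 2 alone (adjusted p = 0.412), where each mouse had 8 to 23 reads. The direction was upward in each of these.

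Prkar2b, the type II beta form typical of fat tissue (chromosome 12, 31958476 to 32061296), had the most reads of the 8 genes, 926 to 1377 a mouse. Its values were 601, 690 and 539 CPM in cold mice 4, 11 and 15, against 636, 601 and 633 CPM in ctrl mice 2, 9 and 14. Cold mice held both the highest and the lowest value. The fold was 0.979, with an interval of 0.870 to 1.10 (edgeR adjusted p = 0.847). Prkar1b, the type I beta form known from the brain (chromosome 5, 139017306 to 139150001), had 2, 3 and 3 reads in cold mice and 2, 2 and 1 reads in ctrl mice, too few to test. It shares 341 exonic bases with Gm15672 on the same strand, which had 6 reads against its 13, so these counts are uncertain.

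The make-up of the regulatory subunit mRNA followed these counts. Prkar1a held 20.7, 20.5 and 23.4% of regulatory reads per kb in cold mice 4, 11 and 15, against 16.8, 17.1 and 18.3% in ctrl mice 2, 9 and 14. Prkar2b held 77.3, 77.8 and 73.8% in cold and 81.5, 81.4 and 80.8% in ctrl mice, and Prkar2a held 1.81, 1.501 and 2.53% in cold and 1.49, 1.39 and 0.922% in ctrl mice. The groups did not overlap for any of the 3. The Prkar1a share averaged 21.5 ± 1.62% in cold and 17.4 ± 0.763% in ctrl mice, and the Prkar2b share 76.3 ± 2.204% in cold and 81.2 ± 0.402% in ctrl mice, a difference of -4.90 percentage points. Each of these 3 comparisons gave an exact two-sided permutation p of 0.1, the smallest that 3 mice against 3 allow, so none can pass 0.05. Shares of 1 total are tied to each other, and the shares of Prkar1a and Prkar2a restate their higher counts. The ratio of regulatory to catalytic reads per kb was 1.28 ± 0.0490 in cold and 1.21 ± 0.0846 in ctrl mice (exact p = 0.3). Without scaling by length the ratio was 1.77 ± 0.0716 in cold and 1.67 ± 0.119 in ctrl mice, so its size depends on that scaling.

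**Figure D2:**
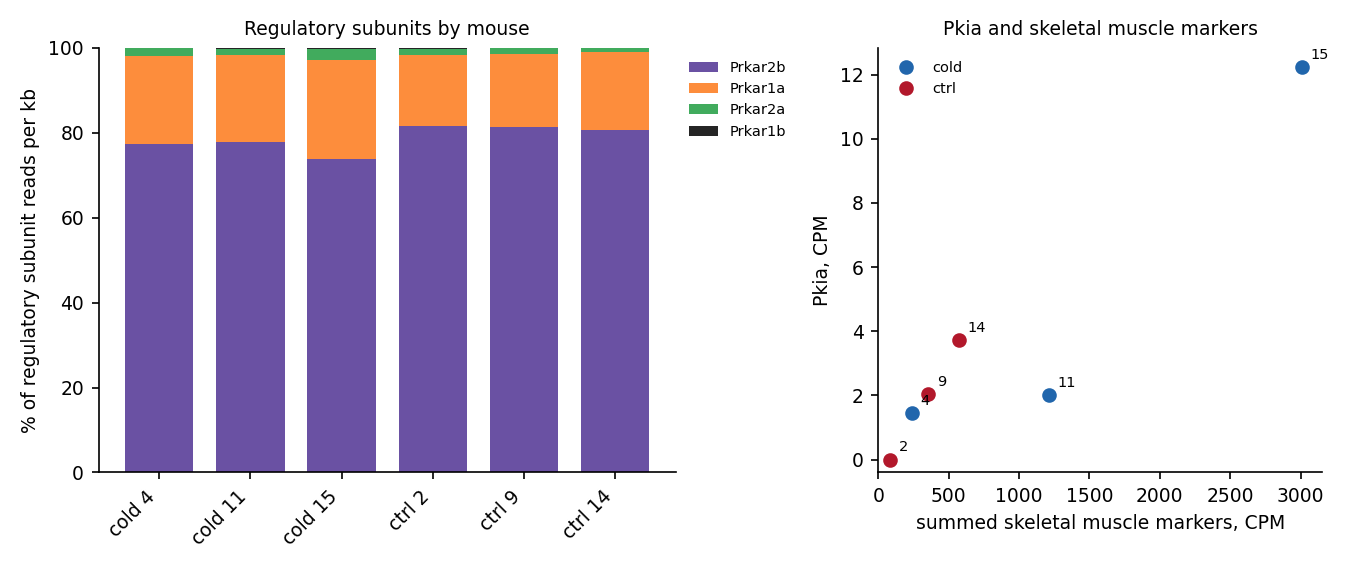
Left, share of each regulatory subunit gene in the regulatory reads per kb of each mouse, in percent, with cold mice left of ctrl mice; the Prkar2b share is 73.8 to 77.8% in cold and 80.8 to 81.5% in ctrl mice. Right, Pkia level against the summed skeletal muscle markers, both in CPM, 1 point a mouse; cold mouse 15 is highest on both axes.

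Pkia, an inhibitor of the free catalytic subunits that is known from skeletal muscle, heart and brain (chromosome 3, 7366669 to 7445366), had 3, 4 and 21 reads in cold mice 4, 11 and 15, against 0, 4 and 8 reads in ctrl mice 2, 9 and 14. Of its 40 reads, 21 came from cold mouse 15. The gene did not pass the filter on low counts. A fit with no filter gave a log2 fold change of 1.23 with an interval of -0.37 to 2.82 (edgeR adjusted p = 0.494), so its direction is not known. The mouse with the highest Pkia level also had the highest muscle markers in each group, cold mouse 15 and ctrl mouse 14, and ctrl mouse 2 was lowest in both. Cold mouse 11 went against this order. It had 1211 CPM of muscle markers but 2.00 CPM of Pkia, against 572 and 3.72 CPM in ctrl mouse 14. The part of muscle in the Pkia reads was not tested.

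Akap1, which anchors the kinase at the outer mitochondrial membrane (chromosome 11, 88830792 to 88864586), had 107, 117 and 97.2 CPM in cold mice 4, 11 and 15, against 105, 93.9 and 115 CPM in ctrl mice 2, 9 and 14. The groups overlapped almost wholly. The fold was 1.02, with an interval of 0.878 to 1.19 (edgeR adjusted p = 0.872).

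Long reads allow the counts to be split by transcript, and 11 of the 26 transcripts were tested. Of these, 2 were higher in the cold and none lower, where 8.33% of 11699 tested transcripts were higher and 16.3% were called in either direction. The groups did not overlap in 4 of the 11, against 32.2% of all tested transcripts. Transcript CPM are scaled to the reads of tested transcripts and so run slightly above gene CPM. A read that stops short of the 5′ end cannot tell transcripts apart that differ only in their first exons, and how such reads were assigned is not given in the sources used here.

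**Figure D3:**
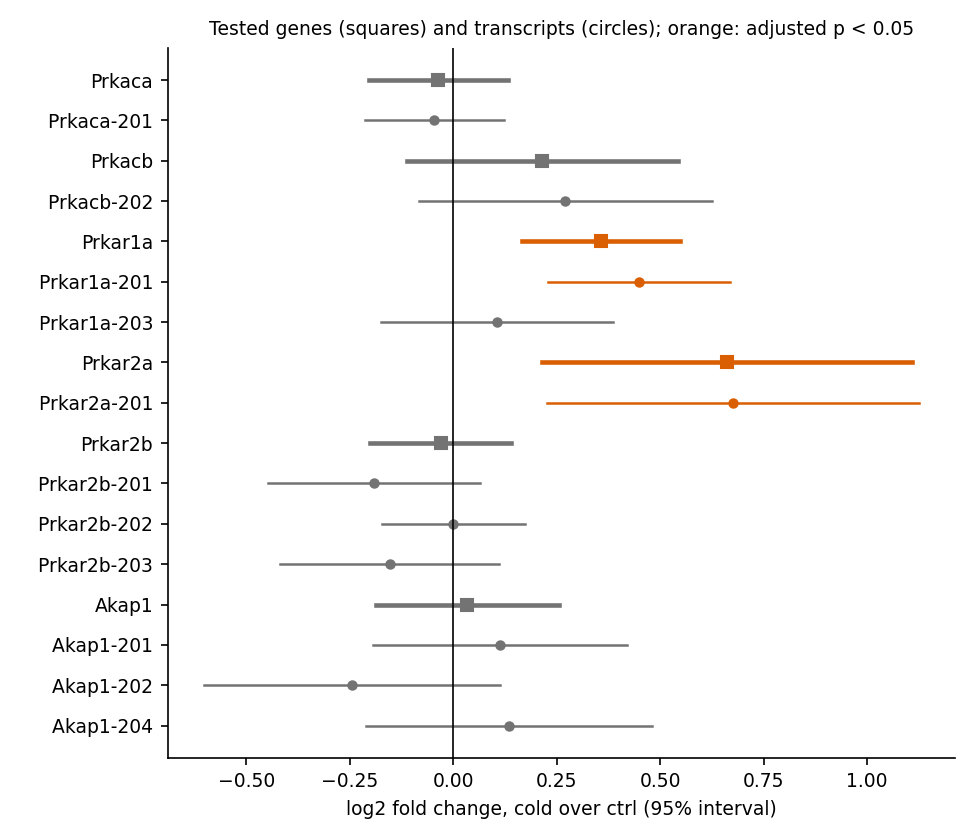
Log2 fold change of cold over ctrl for the 6 tested genes (squares) and their 11 tested transcripts (circles), with 95% intervals. The intervals of Prkar1a, Prkar1a-201, Prkar2a and Prkar2a-201 lie above 0 and these 4 are in orange for an adjusted p under 0.05; those of the others span 0.

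Prkar1a reads fell on a pair of transcripts that start 1516 bases apart and encode the same 1143-base coding sequence. They share 3206 bases and differ only in their non-coding leader, by 153 bases in Prkar1a-201 and 307 in Prkar1a-203. Prkar1a-201, which starts at the promoter shown above with the whole cAMP response element, had 123, 150 and 132 CPM in cold mice 4, 11 and 15, against 96.7, 95.4 and 104 CPM in ctrl mice 2, 9 and 14. Every cold mouse lay above every ctrl mouse, and the fold was 1.36 (log2 fold change 0.45 ± 0.11 SE, edgeR adjusted p = 0.00382). On flow cell 2 alone this call was lost (0.23, adjusted p = 0.383), and the muscle covariate was not fitted to transcripts. Prkar1a-203, from the upstream start, had 52.3, 47.7 and 55.8 CPM in cold and 48.3, 43.2 and 52.7 CPM in ctrl mice. These overlapped, with a log2 fold change of 0.11 and an interval of -0.18 to 0.39 (adjusted p = 0.679).

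That 1 transcript passed the test and the other did not is no test of their difference. Prkar1a-201 made up 69.7, 75.7 and 70.1% of the gene's reads in cold mice, against 66.7, 68.6 and 66.3% in ctrl mice. All 3 cold shares lay above all 3 ctrl shares, and how often shares separate like this among all genes was not counted. The usage test of edgeR's diffSpliceDGE gave Prkar1a a Simes p of 0.282 and an adjusted p of 1.00, and the usage of Prkar1a-203 changed by -0.24 on the log2 scale. It called 0 of the 3 genes it could test here, Prkar1a, Prkar2b and Akap1, and 5 of 2568 genes (0.195%) in all. The lowest p of the other 2 was 0.508, for Akap1, so no gene of the 3 was below 0.05 before adjustment. The usage change of Prkar1a-203 was -0.41 on flow cell 1 alone but -0.0089 on flow cell 2 alone. On flow cell 2 the log2 fold changes of Prkar1a-201 and Prkar1a-203 were alike, at 0.23 and 0.21, and neither was called.

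**Figure D4:**
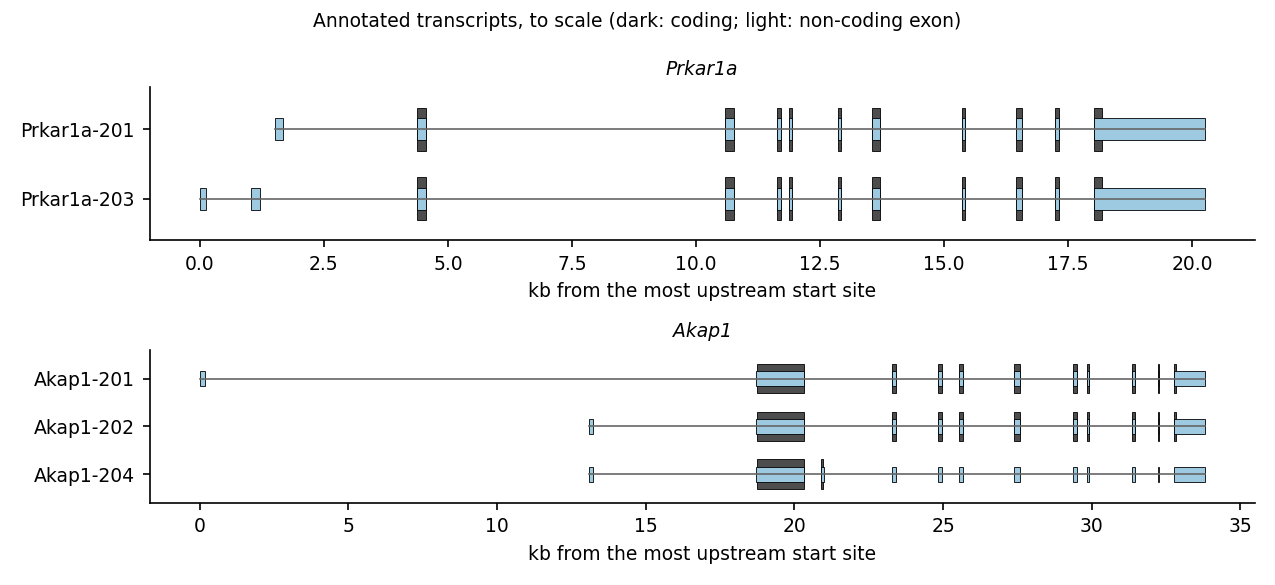
Annotated exons of the well-read Prkar1a and Akap1 transcripts, to scale, in kb from the most upstream start site; tall dark boxes are coding and low light boxes non-coding. The Prkar1a transcripts differ only in the leader, and Akap1-204 carries an additional exon in which its coding sequence ends.

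Akap1 had the most varied transcripts. Akap1-201 and Akap1-202 start 13083 bases apart and share a coding sequence of 2571 bases, while Akap1-204 is Akap1-202 with an additional exon of 107 bases and is annotated as a target of nonsense-mediated decay. Akap1-204 took 30.7% of the gene's reads, with 36.0, 35.4 and 33.6 CPM in cold mice 4, 11 and 15 and 34.0, 24.3 and 37.4 CPM in ctrl mice 2, 9 and 14 (edgeR adjusted p = 0.668). Akap1-201 had 46.9, 59.0 and 42.0 CPM in cold and 40.0, 45.9 and 50.8 CPM in ctrl mice (adjusted p = 0.688). Both overlapped between the groups. Akap1-202 had 24.7, 23.6 and 22.8 CPM in cold mice, each below the 31.6, 25.3 and 27.8 CPM of the ctrl mice. Its log2 fold change of -0.25, with an interval of -0.60 to 0.11, did not pass the test (adjusted p = 0.389).

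Prkar2b-202 carried 77.4% of Prkar2b reads, with 478, 559 and 435 CPM in cold mice 4, 11 and 15 and 486, 479 and 508 CPM in ctrl mice 2, 9 and 14. Its log2 fold change was 0.00, with an interval of -0.17 to 0.17 (edgeR adjusted p = 1.00). Prkar2b-201 encodes the same 1248-base coding sequence but lacks 1721 bases of Prkar2b-202, and had 62.7, 59.98 and 52.2 CPM in cold mice. The ctrl mice all lay above these, at 68.6, 63.8 and 68.1 CPM, yet the log2 fold change of -0.19 did not pass the test (adjusted p = 0.339). Prkar2b-203, which starts 707 bases downstream with a coding sequence of 768 bases, had 74.0, 87.1 and 68.4 CPM in cold and 102, 78.6 and 76.7 CPM in ctrl mice (adjusted p = 0.479).

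**Figure D5:**
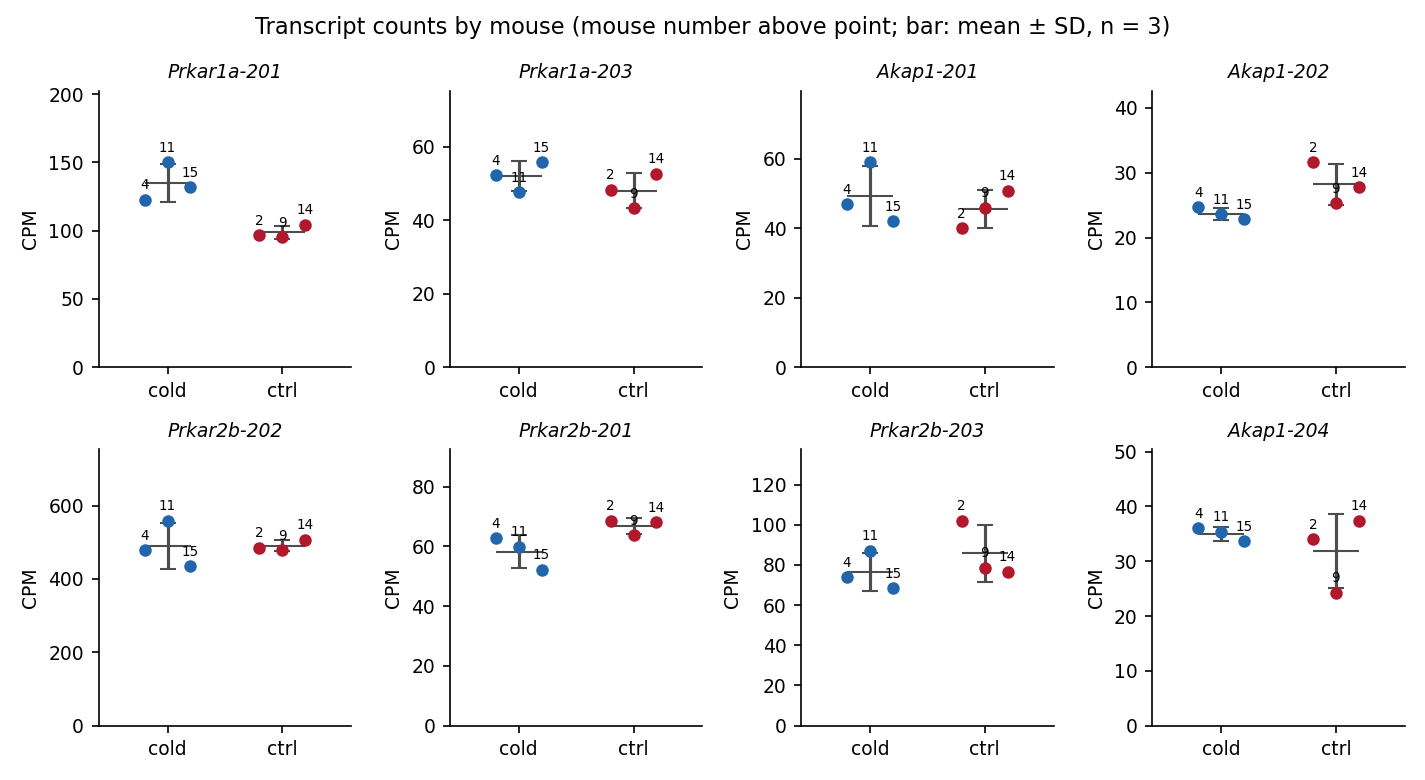
Level of the Prkar1a, Prkar2b and Akap1 transcripts in every mouse, in CPM on linear axes from 0, cold mice left of ctrl mice, with mouse numbers and mean ± SD (n = 3). Prkar1a-201 is higher in all cold mice (123 to 150 CPM, ctrl 95.4 to 104 CPM), and Prkar2b-201 and Akap1-202 are lower in all cold mice without passing the test.

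Prkaca, Prkacb and Prkar2a were counted mostly on 1 transcript each. Prkaca-201 took 99.8% of Prkaca reads and Prkaca-202 had 12 reads in all. Prkacb-202 took 90.4% of Prkacb reads, with 33.1, 26.7 and 36.0 CPM in cold and 25.7, 29.0 and 24.4 CPM in ctrl mice (edgeR adjusted p = 0.326). Prkar2a-201 took 98.6% of Prkar2a reads and was higher in the cold like its gene, with a log2 fold change of 0.68 ± 0.22 SE (adjusted p = 0.0330). It lost the call under the same changes as the gene that were run on transcripts.

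Genes with the most similar pattern over the 6 libraries were taken from 3171 genes of at least 30 CPM, by the root mean square difference of centred log2 CPM. Nearest to Prkar1a were Rab9, a small GTPase of endosomes, at 0.0424, Mbnl2, a splicing regulator, at 0.0433, and Tmem94 at 0.0438. Tmem94 shares 184 exonic bases with Caskin2 on the opposite strand. Rab9 averaged 101 CPM in cold and 74.3 CPM in ctrl mice. Nearest to Prkar2a were Klf9, a zinc finger transcription factor, at 0.0750, the phosphatase gene Ppp5c at 0.109 and Zfp691 at 0.127. Klf9 averaged 134 CPM in cold and 92.0 CPM in ctrl mice.

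Among the tested genes of the lists around the kinase, 2 that act above it, Adcy3 and Adcy10, had the largest log2 fold changes, 2.83 and -1.06. Gnas, also above the kinase, changed less (0.44) than Pde4d (0.92) or Arfgef2 (0.75) of other lists. Of 14 genes listed upstream, 10 were tested, 2 rose and 1 fell, and their median log2 fold change was 0.11 against 0.0009 for all genes. Gnas, which encodes the stimulatory G protein that links receptors to adenylyl cyclase, had 3074, 3197 and 3012 CPM in cold mice 4, 11 and 15, against 2469, 2131 and 2238 CPM in ctrl mice 2, 9 and 14. Every cold mouse was above every ctrl mouse (fold 1.36, edgeR adjusted p = 5.1e-05), and Gm20721 on the opposite strand shares sequence with it but had only 248 reads against 31171. Adcy3, an adenylyl cyclase that makes cAMP, averaged 540 ± 23.6 CPM in cold and 76.3 ± 22.3 CPM in ctrl mice. It overlaps Cenpo on the opposite strand over 1380 exonic bases, with 668 Cenpo reads against 3574, and strand use is not given in the sources used here. Adcy10, a soluble cyclase, fell to 4.41 ± 1.31 CPM in cold mice, against 9.33 ± 4.43 CPM in ctrl mice (adjusted p = 0.0493). Among the fits that left out 1 mouse, only that without ctrl mouse 2 kept this call, and the others gave adjusted p from 0.0632 to 0.352, with 0.161 without cold mouse 15. It was also lost with DESeq2 (0.203) and with the muscle covariate (0.108).

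Of 20 listed targets of the kinase, 18 were tested, and 1 rose and 2 fell (16.7%, where 19.5% of all tested genes were called), with a median log2 fold change of 0.06. Pde4d, a phosphodiesterase that breaks cAMP down, had 37.2, 45.6 and 41.3 CPM in cold and 22.0, 15.8 and 27.5 CPM in ctrl mice, without overlap (fold 1.89, edgeR adjusted p = 0.000756). On flow cell 2 alone its adjusted p was 0.166. Lipe, the hormone-sensitive lipase, fell to 451, 498 and 426 CPM in cold mice, against 559, 522 and 598 CPM in ctrl mice (fold 0.819, adjusted p = 0.0128), and Phka2, a phosphorylase kinase subunit, to 8.88 ± 2.87 CPM in cold mice, against 17.0 ± 1.77 CPM in ctrl mice (fold 0.531, adjusted p = 0.0119). Without cold mouse 15 neither passed (adjusted p = 0.0535 for Lipe and 0.0595 for Phka2), nor did they without cold mouse 4 (0.0612 for Lipe and 0.0552 for Phka2), and Lipe lost its call without ctrl mouse 14 as well (0.0921). Both calls were also lost with DESeq2 (0.0674 for Lipe and 0.0865 for Phka2) and with the muscle markers as a covariate (0.0631 for Lipe and 0.0593 for Phka2). Without cold mouse 15, 2 targets were higher, Pde4d and Crem, and 0 were lower. With all mice Crem, a cAMP-responsive transcription factor, was not called (edgeR adjusted p = 0.389). It had 19.3, 13.5 and 5.24 CPM in cold mice 4, 11 and 15, the last below all ctrl mice at 9.84, 9.70 and 8.84 CPM.

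Of 30 other anchor genes 17 were tested, 1 rose and 2 fell, and the median was -0.09. Arfgef2, an exchange factor of the trans-Golgi that also binds regulatory subunits, had 38.2, 45.1 and 50.7 CPM in cold and 23.1, 27.0 and 28.4 CPM in ctrl mice (fold 1.68, edgeR adjusted p = 0.00132). Its groups did not overlap, and it was called in all 14 alternatives. Gskip, an anchor that also binds glycogen synthase kinase, fell to 10.1 ± 2.55 CPM in cold mice, against 17.3 ± 3.22 CPM in ctrl mice (adjusted p = 0.0289). It lost the call without cold mouse 11 or 15 and without ctrl mouse 2 or 14 (adjusted p from 0.0507 to 0.164), with DESeq2 (0.172) and with the muscle covariate (0.122), and it overlaps Atg2b on the opposite strand over 383 bases. Rsph3a had 47.0 ± 11.2 CPM in cold and 62.9 ± 6.44 CPM in ctrl mice (adjusted p = 0.0430), a call that leaving out any mouse but cold mouse 15 ended (adjusted p from 0.0576 to 0.225), as did DESeq2 (0.195) and flow cell 2 alone (0.317). Its near copy Rsph3b is 96.8% identical over 2243 aligned bases and had 487 reads against 636, so the split of reads between these copies is uncertain. Across the tested genes of these 3 lists the called shares were 30% upstream, 16.7% of targets and 17.6% of anchors, beside 19.5% of all genes.

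None of the remaining cAMP genes passed the test. Of the other catalytic and inhibitor genes 2 of 3 were tested, with a median log2 fold change of 0.31. Pkig, an inhibitor related to Pkia, had 15.9, 23.0 and 21.0 CPM in cold and 14.5, 15.3 and 13.0 CPM in ctrl mice, without overlap (log2 fold change 0.48, interval 0.043 to 0.92, edgeR adjusted p = 0.120). Prkx, an X-linked relative of the catalytic subunits, had 6.93 ± 3.30 CPM in cold and 6.25 ± 1.38 CPM in ctrl mice (adjusted p = 0.855). Of 5 other cAMP effectors 2 were tested, with a median of 0.27. Rapgef3, a cAMP-activated exchange factor, had 10.5 ± 1.51 CPM in cold and 8.22 ± 1.28 CPM in ctrl mice (adjusted p = 0.401), and Popdc2, a cAMP-binding membrane protein, 7.83 ± 0.793 CPM in cold and 6.83 ± 0.411 CPM in ctrl mice (adjusted p = 0.729). Popdc2 shares 89 exonic bases with Gm21987 on the same strand, which had 28 reads against 85.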

How the data were processed

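Direct cDNA libraries from 100 ng of poly(A) RNA of each mouse were run on 2 flow cells, per the labels' protocols. The authors deposited raw, whole-number read counts per transcript for each flow cell, made with minimap2 on GRCm38 per the submitters' processing notes. The extraction text names another fat depot, and the tissue labels, which say interscapular brown fat, were followed. The program's version, the annotation, strand use and the handling of ambiguous reads were not given in the sources used here.

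Counts were matched to GENCODE M21, where 172 of 59543 transcripts (0.0836% of reads) found no match and were left out, and summed over flow cells per transcript and per gene. Genes and transcripts were tested with edgeR 4.0.16 in R 4.3.3 (filterByExpr, TMM, robust quasi-likelihood fit over all 6 libraries, no covariate, Benjamini-Hochberg adjustment over every tested feature), and usage with diffSpliceDGE. CPM use TMM library sizes. Shares were compared with exact permutation tests. The scripts were tested on simulated data. Alternatives were DESeq2 1.42.0, RLE scaling, no filter, leaving out each mouse, single flow cells, no mitochondrial genes, protein-coding transcripts only, a muscle covariate, and shares without length scaling. Overlaps and look-alikes (at least 200 bases at 95% identity, minimap2 2.31) were listed. The look-alike search took member transcripts of at least 20 reads, and no other gene resembled these that closely. Prkar1b had no such transcript and was not searched, and it shares 341 exonic bases with Gm15672.

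Named were the 8 genes, their transcripts of at least 20 reads, up to 4 called genes of each list (or the 2 with the largest change), and the 3 genes nearest to each called gene. Crem and the single marker genes were named after their values were seen. The members, lists and tests were chosen with earlier results of these data known.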

Additional observations from a re-analysis of the deposited data

How the results depend on the processing

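No paired analysis was run, because the labels give no pairing of cold and ctrl mice. Prkar1a kept its direction in all 14 alternatives and its call in 11, and Prkar2a kept its direction in all 14 and its call in 7. With DESeq2, 492 genes were higher and 439 lower, as were 515 and 481 transcripts, and the log2 fold changes were 0.36 for Prkar1a, 0.66 for Prkar2a and 0.68 for Prkar2a-201, none called. Flow cell 2 alone gave 429 higher and 408 lower genes, 466 and 446 transcripts and 3 usage genes, with 0.23 for Prkar1a and Prkar1a-201, 0.47 for Prkar2a and 0.48 for Prkar2a-201, none called. There the signs turned for Akap1 (-0.12), Akap1-201 (-0.11), Akap1-204 (-0.15), Prkar2b-202 (-0.15), Prkar2b-201 usage (0.10) and the regulatory to catalytic ratio (-0.020). With the muscle covariate 559 genes were lower, Prkar1a had 0.30 and Prkar2a 0.65, neither called, and Prkar2b (0.011) and Prkx (-0.25) turned. Prkar2b was 0.039 on flow cell 1 alone, and Akap1 -0.016 from protein-coding transcripts. Leaving out each mouse gave 0.47 to 0.80 for Prkar2a and 0.47 to 0.81 for Prkar2a-201. Signs turned within -0.047 to 0.11 for Akap1, -0.033 to 0.21 for Akap1-201, -0.036 to 0.27 for Akap1-204, -0.094 to 0.036 for Prkaca, -0.10 to 0.029 for Prkaca-201, -0.13 to 0.053 for Prkar2b, -0.099 to 0.087 for Prkar2b-202 and -0.18 to 0.48 for Prkx. None of these that turned was called in any setting. The cause of these shifts was not tested. Depth limits Prkar2a, Prkar1b and Pkia most, as flow cell 2 held 8 to 23 Prkar2a reads a mouse.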
